A study of Homo sapiens with 16 samples.

Results

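The genes described here act at the step from G1 to S phase of the cell cycle. They are the D-type cyclins CCND1, CCND2 and CCND3, the kinases CDK4 and CDK6 that these cyclins activate, the E-type cyclins CCNE1 and CCNE2, the CDK inhibitor CDKN1B (p27), the pocket protein RBL2 (p130) and the transcription factor E2F1. They were chosen by name as regulators of this step, with earlier results of these data known. Each level was taken from the probe set that carries that gene's symbol alone. All 10 genes had exactly 1 such probe set, among 22395 genes with a probe set of their own. Of the 10, 9 were tested, because they lay in the upper 70% of genes by mean log2 level (15676 genes), and CCND2 did not.

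Growth factor signals raise D-type cyclins, which with CDK4 or CDK6 phosphorylate RB1 and its relatives RBL1 and RBL2 and so release E2F factors. E2F1 and its relatives switch on CCNE1, CCNE2 and the genes of DNA replication, and cyclin E with CDK2 drives entry into S phase. CDKN1B holds cyclin E and CDK2 in check, RBL2 sits with E2F4 in the DREAM complex that represses cell cycle genes in resting cells, and the phosphoinositide 3-kinase (PI3K) pathway acts on this step in part through FOXO factors, which are known to activate CDKN1B and RBL2.

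The samples were cultures of DLD1 and HCT116, long-established cell lines from human colorectal cancers. Each line was present as 2 derivatives that differ at PIK3CA, which encodes a catalytic subunit of PI3K: Mut cells kept the mutant allele after knockout of the wild-type one, and WT cells kept the wild-type allele after knockout of the mutant one. All cells were kept in DMEM with 10% dialyzed fetal bovine serum, and each derivative was left without glutamine or given it for 24 hours. This gave 8 groups of 2 biological replicates, 16 arrays in all: DLD1 Mut without and with glutamine, DLD1 WT without and with glutamine, HCT116 Mut without and with glutamine, and HCT116 WT without and with glutamine. Each genotype of a line was a single derivative, so genotype and derivative cannot be told apart, and the labels call the replicates biological without saying whether they were separate cultures, so p-values measure the spread between these arrays.

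The deposited values were linear intensities, with array medians from 3.57 to 3.70, and all levels below are log2 intensities, 1 for each array. Among epithelial markers EPCAM had intensities from 1387 to 2377, KRT19 from 652 to 1435 and CDH1 from 421 to 3085. CDX2 ran from 38.2 to 282, KRT18 from 66.9 to 138 and KRT8 from 12.3 to 42.0. The enterocyte markers VIL1 (2.72 to 9.29) and LGALS4 (5.23 to 12.3) were dim. With glutamine the lines differed most in CDH1 and CDX2, 2.47 and 2.34 log2 higher in DLD1. On withdrawal VIL1 and CDX2 were called as falls in both DLD1 derivatives, and CDH1 and KRT19 as rises in HCT116 WT cells. The leukocyte marker PTPRC (1.67 to 2.37), the fibroblast marker DCN (1.63 to 2.13) and the endothelial marker CDH5 (2.16 to 2.97) stayed below every array's median, as did the leukocyte marker CD3E (1.71 to 3.16). The fibroblast marker COL1A1 (4.85 to 14.1) lay above it on every array and was tested, and CD14 of leukocytes, PDGFRB (2.22 to 4.30) and COL1A2 (2.16 to 3.98) of fibroblasts and VWF of endothelium (2.31 to 3.72) each had a highest intensity above all array medians. COL1A1 was not called on withdrawal in any derivative. None of the 3 leukocyte markers was bright enough to be tested. Their summed level (log2) was 3.60 to 4.37 in DLD1 Mut cells with glutamine and 2.62 to 3.38 in the other groups. Of the 3, only CD14 exceeded an intensity of 3.16 on any array, and the part of these markers in the results was not tested. A change is the log2 difference ± SE from a single limma fit of the 8 groups, with 2 arrays in each, and it was called where the Benjamini-Hochberg adjusted p over all tested genes was under 0.05.

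The comparison without against with glutamine asks which of these regulators respond to its withdrawal. Averaged over the 4 derivatives, the E-type cyclins, E2F1, CDK4, RBL2 and CCND3 fell and the inhibitor CDKN1B rose, while CCND1 and CDK6 were not called. The average change of CCND1 (0.10 ± 0.04, adjusted p = 0.0633) was called as a rise with eBayes trend and robust (adjusted p = 0.00556), genes above the median level (0.0306), quantile normalization (0.0063) and equal array medians (0.0321). CCNE1 fell in all 4 derivatives, as did 3.67% of all tested genes. No other member was called in the same direction in all 4, where 3.54% of all tested genes rose in all 4. On average 7 of the 9 tested members were called, where 47.7% of all tested genes were: 6 fell (23.5% of all tested genes fell) and 1 rose (24.3%). The median change of the 9 was -0.26, against -0.0042 for all tested genes. Members called were 5 in DLD1 Mut cells (33.6% of all tested genes were called), 2 in DLD1 WT (27%), 6 in HCT116 Mut (32.9%) and 6 in HCT116 WT cells (20.3%). Of these 4 fell and 1 rose in DLD1 Mut (16.8% of all tested genes fell and 16.8% rose), 1 fell and 1 rose in DLD1 WT (13% and 14%), 4 fell and 2 rose in HCT116 Mut (16.5% and 16.4%), and 4 fell and 2 rose in HCT116 WT cells (10.1% and 10.3%). In cultures such as these, fewer cells of a cycle phase and less RNA per cell cannot be told apart.

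**Figure D1:**
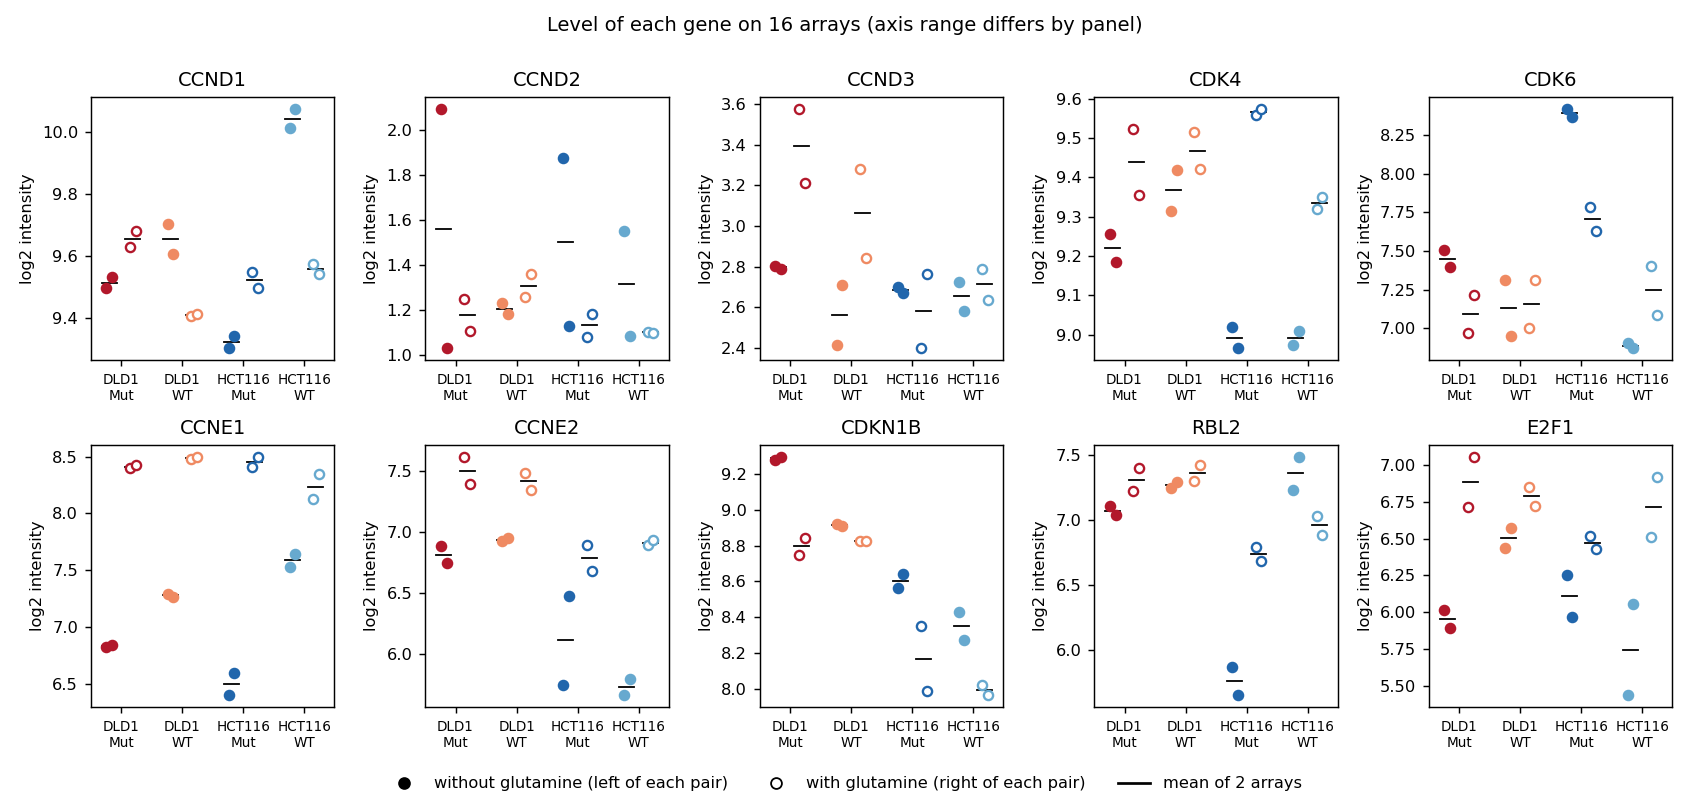
Levels of the 10 genes as log2 intensity (y axis, own range in each panel) in the 4 derivatives (x axis), with filled points for arrays without glutamine, open points for arrays with glutamine and a line at the mean of the 2 arrays of a group. The CCNE1 points without glutamine lie below those with glutamine in each derivative, and the RBL2 points of HCT116 Mut cells without glutamine (5.86 and 5.65) lie below all others of that gene.

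Cyclin E1, CCNE1, was the member with the largest change on average (-1.34 ± 0.05, a 2.54-fold fall, adjusted p = 1.64e-08). In DLD1 Mut cells its level was 6.83 and 6.84 without glutamine, against 8.40 and 8.42 with it. In DLD1 WT cells it was 7.29 and 7.27 without glutamine and 8.48 and 8.49 with it. In HCT116 Mut cells it was 6.40 and 6.60 without glutamine, against 8.41 and 8.50 with it, and in HCT116 WT cells it was 7.53 and 7.64 without glutamine, against 8.12 and 8.34 with it. The 8 arrays without glutamine were all lower than the 8 with it. Without glutamine the groups stood in the order HCT116 WT, DLD1 WT, DLD1 Mut and HCT116 Mut, highest to lowest. Neighbours in this order had no overlap of arrays. The call between the DLD1 derivatives was lost without any 1 of their 4 arrays without glutamine. The shares of all tested genes without overlap between such neighbours, or between the 8 and 8 arrays, were not counted. With glutamine all CCNE1 levels lay between 8.12 and 8.50. The change was -1.57 ± 0.10 in DLD1 Mut, -1.21 ± 0.10 in DLD1 WT, -1.95 ± 0.10 in HCT116 Mut and -0.64 ± 0.10 in HCT116 WT cells (adjusted p = 2.8e-06, 2.1e-05, 9.94e-07 and 0.00129). Each of these calls held with every array left out in turn.

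Cyclin E2, CCNE2, fell on average (-0.76 ± 0.10, adjusted p = 7.24e-05). In HCT116 WT cells its level was 5.66 and 5.79 without glutamine, against 6.89 and 6.93 with it (-1.18 ± 0.19, adjusted p = 0.00172). In HCT116 Mut cells it was 5.74 and 6.47 without glutamine, against 6.89 and 6.68 with it (-0.68 ± 0.19, adjusted p = 0.0209). The arrays of HCT116 Mut cells without glutamine lay far apart for this gene, and the call was lost without replicate 1 of that group (-0.31, adjusted p = 0.148) or replicate 1 with glutamine (-0.57, adjusted p = 0.119), and with HCT116 fitted alone (0.0793). In DLD1 Mut cells it was 6.88 and 6.74 without glutamine, against 7.62 and 7.39 with it (-0.69 ± 0.19, adjusted p = 0.0187), a call lost without replicate 2 without glutamine (-0.62, adjusted p = 0.0982) or replicate 1 with it (-0.58, adjusted p = 0.118). In DLD1 WT cells it was 6.92 and 6.95 without glutamine and 7.48 and 7.35 with it, lower on both arrays but not called (-0.48 ± 0.19, adjusted p = 0.0979, 95% interval -0.91 to -0.05). It was called there when replicate 1 or 2 of HCT116 Mut without glutamine was left out of the shared fit (adjusted p = 0.0142), with DLD1 fitted alone (0.0298) and with eBayes trend and robust (0.0452).

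E2F1, the activator that acts upstream of both E-type cyclins, fell on average (-0.64 ± 0.10, adjusted p = 0.000422) and had a negative change in all 4 derivatives. In DLD1 Mut cells its level was 6.02 and 5.89 without glutamine, against 6.71 and 7.06 with it (-0.93 ± 0.21, adjusted p = 0.00551). In HCT116 WT cells it was 5.43 and 6.05 without glutamine, against 6.51 and 6.92 with it (-0.97 ± 0.21, adjusted p = 0.00793). No array without glutamine reached the level of one with glutamine in any of the 4 derivatives, called or not. The shares of all tested genes without such overlap, or with a negative change in all 4, were not counted. The call in DLD1 Mut cells was lost without replicate 2 with glutamine (-0.76, adjusted p = 0.0522), and that in HCT116 WT cells without replicate 1 without glutamine (-0.66, adjusted p = 0.0618) or replicate 2 with it (-0.77, adjusted p = 0.0697). In DLD1 WT cells it was 6.44 and 6.57 without glutamine, against 6.85 and 6.72 with it, and in HCT116 Mut cells 6.25 and 5.96 without glutamine, against 6.52 and 6.43 with it. These changes were not called (-0.28 ± 0.21 and -0.36 ± 0.21, 95% intervals -0.75 to 0.18 and -0.83 to 0.10).

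The promoters of E2F1 and CCNE1 are shown because both genes are known E2F targets and both fell on average, and those of CDKN1B and RBL2 because both are known FOXO targets. Each window runs 5′ to 3′ from 250 bases before to 50 after the RefSeq start of the gene in build GRCh38.p14, and of the 10 genes 7 had such a window in the RefSeq table used. Searched on both strands were 4 words of the E2F consensus, TTTCCCGC, TTTCGCGC, TTTGCCGC and TTTGGCGC, and the FOXO word GTAAACA. Capitals mark matches to an E2F word.
E2F1, chr20:33686336-33686635, minus strand: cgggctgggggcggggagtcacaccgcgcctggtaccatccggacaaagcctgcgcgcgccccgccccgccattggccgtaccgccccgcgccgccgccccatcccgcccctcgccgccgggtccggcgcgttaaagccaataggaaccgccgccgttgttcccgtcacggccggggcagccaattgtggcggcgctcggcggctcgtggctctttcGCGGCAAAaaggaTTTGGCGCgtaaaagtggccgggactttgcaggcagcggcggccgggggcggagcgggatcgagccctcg
CCNE1, chr19:29811741-29812040, plus strand: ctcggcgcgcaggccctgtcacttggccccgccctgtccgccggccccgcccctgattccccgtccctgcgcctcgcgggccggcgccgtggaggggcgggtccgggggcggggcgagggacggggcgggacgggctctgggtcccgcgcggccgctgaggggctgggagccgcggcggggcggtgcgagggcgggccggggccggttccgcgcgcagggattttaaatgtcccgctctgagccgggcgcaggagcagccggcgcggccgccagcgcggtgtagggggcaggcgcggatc
CDKN1B, chr12:12717118-12717417, plus strand: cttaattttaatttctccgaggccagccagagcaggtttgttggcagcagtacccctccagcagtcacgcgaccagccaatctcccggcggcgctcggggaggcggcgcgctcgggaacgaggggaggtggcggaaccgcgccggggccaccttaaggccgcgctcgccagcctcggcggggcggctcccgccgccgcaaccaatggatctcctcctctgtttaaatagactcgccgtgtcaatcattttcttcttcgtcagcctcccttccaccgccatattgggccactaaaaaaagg
RBL2, chr16:53434221-53434520, plus strand: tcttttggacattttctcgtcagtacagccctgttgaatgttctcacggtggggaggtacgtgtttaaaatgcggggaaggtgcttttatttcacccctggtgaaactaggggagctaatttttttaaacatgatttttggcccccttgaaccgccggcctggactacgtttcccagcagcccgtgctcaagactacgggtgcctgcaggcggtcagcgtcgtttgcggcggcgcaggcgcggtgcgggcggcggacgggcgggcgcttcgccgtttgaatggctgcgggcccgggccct
The E2F1 window held 2 matches, TTTGCCGC on the opposite strand at positions -33 to -26 and TTTGGCGC at -20 to -13 from its start, where 3.31% of the 35116 windows in the table held an E2F word. The FOXO word was held by 3.42% of all windows and, among the members, by 1 of 3 CCND3 windows (GTAAACA at -2 to 5, chr6:42048639-42048938, minus strand). The windows of CCNE1, CDKN1B, CDK4, CDK6 and RBL2, with 2 windows each for CDK6 and RBL2, held none of the 5 words in these letters; the first RBL2 window is the one shown. A match describes letters and is not a measured binding site.

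Of the D-type cyclins, CCND1 rose without glutamine in the WT cells of both lines and was not called in Mut cells in the fit with 8 groups and a plain eBayes step. In HCT116 WT cells its level was 10.01 and 10.07 without glutamine, against 9.57 and 9.54 with it, and it rose (0.48 ± 0.08, adjusted p = 0.00148). In DLD1 WT cells it was 9.70 and 9.61 without glutamine, against 9.41 and 9.41 with it, and it rose by less (0.24 ± 0.08, adjusted p = 0.0392). In Mut cells the change had the other sign. The level was 9.49 and 9.53 without glutamine, against 9.63 and 9.68 with it, in DLD1 Mut cells (-0.14 ± 0.08, adjusted p = 0.203), and 9.30 and 9.34 without glutamine, against 9.55 and 9.50 with it, in HCT116 Mut cells (-0.20 ± 0.08, adjusted p = 0.0711). In all 4 derivatives, called or not, the arrays without and with glutamine did not overlap for this gene. The share of all tested genes without such overlap was not counted. The Mut changes of CCND1 were called as falls with eBayes trend and robust (adjusted p = 0.00599 in HCT116 and 0.0460 in DLD1), and that of HCT116 also with genes above the median level (0.0336). The call in DLD1 WT cells was lost when any 1 of 12 arrays was left out, namely the 8 of DLD1, the HCT116 Mut arrays without glutamine and the HCT116 WT arrays with it (changes of 0.20 to 0.29, highest adjusted p = 0.207), with DLD1 fitted alone (0.0980) and with no filter on dim genes (0.0812).

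CCND3 was dim, with intensities of 5.27 to 11.9. In DLD1 Mut cells CCND3 had a level of 2.80 and 2.79 without glutamine, against 3.58 and 3.21 with it, and it fell (-0.60 ± 0.18, adjusted p = 0.0276). This call was lost without replicate 1 or 2 without glutamine (-0.60 and -0.59, adjusted p = 0.0924 and 0.0993) or replicate 1 with it (-0.41, adjusted p = 0.197), with DLD1 fitted alone (0.0636) and with eBayes trend and robust (0.0623). It was 2.41 and 2.71 without glutamine and 3.28 and 2.84 with it in DLD1 WT cells (-0.50 ± 0.18, adjusted p = 0.0657), and was called there without replicate 2 with glutamine (-0.72, adjusted p = 0.0312). In HCT116 cells the arrays without and with glutamine overlapped, with changes of 0.11 ± 0.18 in Mut and -0.06 ± 0.18 in WT cells. The average fall of CCND3 (-0.26 ± 0.09, adjusted p = 0.0344) was lost when any 1 of 10 arrays was left out, namely DLD1 Mut or HCT116 Mut without glutamine replicate 1 or 2, DLD1 WT without glutamine replicate 1, HCT116 WT without glutamine replicate 2, DLD1 Mut, DLD1 WT or HCT116 WT with glutamine replicate 1, or HCT116 Mut with glutamine replicate 2 (changes of -0.27 to -0.21, highest adjusted p = 0.0810). It was also lost with eBayes trend and robust (adjusted p = 0.0785) and quantile normalization (0.0725), and in all under 13 of 24 alternatives. The level of CCND2 lay between 1.03 and 2.09 on the 16 arrays, with a mean of 1.29, under the lowest mean of a tested gene, 1.65.

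The kinases of the D-type cyclins moved apart in HCT116 Mut cells, where CDK4 fell and CDK6 rose. There CDK4 had a level of 9.02 and 8.97 without glutamine, against 9.56 and 9.57 with it (-0.57 ± 0.09, adjusted p = 0.000592), and CDK6 one of 8.42 and 8.37 without glutamine, against 7.78 and 7.63 with it (0.69 ± 0.16, adjusted p = 0.00683). The HCT116 Mut arrays without glutamine held the highest CDK6 levels of all 16. In HCT116 WT cells CDK4 was 8.97 and 9.01 without glutamine, against 9.32 and 9.35 with it, and it fell (-0.34 ± 0.09, adjusted p = 0.0193). This CDK4 call was lost without any 1 of the 4 HCT116 WT arrays (changes of -0.36 to -0.33, adjusted p = 0.0642 to 0.0921) and with HCT116 fitted alone (0.0589). CDK6 in HCT116 WT cells was 6.90 and 6.87 without glutamine, against 7.40 and 7.09 with it, lower but not called (-0.36 ± 0.16, adjusted p = 0.149, 95% interval -0.71 to -0.01). The CDK4 change in DLD1 Mut cells was called with eBayes trend and robust (adjusted p = 0.0137) and with genes above the median level (0.0447). Otherwise neither kinase was called in DLD1: the change of CDK4 was -0.22 ± 0.09 in Mut and -0.10 ± 0.09 in WT cells, and that of CDK6 0.36 ± 0.16 in Mut and -0.02 ± 0.16 in WT cells. CDK4 fell on average (-0.31 ± 0.04, adjusted p = 0.000156). The average change of CDK6 was 0.17 ± 0.08 (adjusted p = 0.113), called without replicate 2 of DLD1 WT without glutamine (0.21, adjusted p = 0.0485).

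CDKN1B, the inhibitor of cyclin E and CDK2, rose on average (0.34 ± 0.06, adjusted p = 0.000516), with a positive change in all 4 derivatives. The share of all tested genes with a positive change in all 4 was not counted. In DLD1 Mut cells the level of CDKN1B was 9.28 and 9.30 without glutamine, against 8.75 and 8.84 with it (0.49 ± 0.12, adjusted p = 0.00724). In HCT116 Mut cells it was 8.56 and 8.64 without glutamine, against 8.35 and 7.99 with it (0.43 ± 0.12, adjusted p = 0.0145). The DLD1 Mut arrays without glutamine were the highest of all 16 for this gene. In HCT116 WT cells it was 8.43 and 8.27 without glutamine, against 8.02 and 7.96 with it, and just missed the threshold (0.36 ± 0.12, adjusted p = 0.0526; 0.0179 without replicate 1 or 2 of HCT116 Mut with glutamine), and in DLD1 WT cells it was 8.92 and 8.91 without glutamine, against 8.82 and 8.82 with it (0.09 ± 0.12, adjusted p = 0.631). The call in DLD1 Mut cells was lost without replicate 1 with glutamine (0.45, adjusted p = 0.0523), and that in HCT116 Mut cells without replicate 2 without glutamine (0.40, adjusted p = 0.0805) or replicate 2 with it, where the change was 0.25 (adjusted p = 0.120), and with HCT116 fitted alone (0.0727). The change in HCT116 WT cells was called with eBayes trend and robust (adjusted p = 0.00965), genes above the median level (0.0294) and a pseudocount of 1 (0.0487).

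RBL2, the pocket protein of the DREAM complex, went opposite ways in the HCT116 derivatives. In HCT116 Mut cells its level was 5.86 and 5.65 without glutamine, against 6.79 and 6.68 with it, and it fell (-0.98 ± 0.12, adjusted p = 0.000148). In HCT116 WT cells it was 7.23 and 7.49 without glutamine, against 7.03 and 6.89 with it, and it rose (0.40 ± 0.12, adjusted p = 0.0395). The rise in WT cells was lost when any 1 of 7 arrays was left out: the 4 of DLD1 without glutamine (0.40, adjusted p = 0.0537 or 0.0562), the HCT116 WT array of replicate 2 without glutamine (0.27, adjusted p = 0.240), and both HCT116 WT arrays with glutamine (0.47 without replicate 1 and 0.33 without replicate 2, adjusted p = 0.0698 and 0.195). It was also lost with HCT116 fitted alone (adjusted p = 0.116) and with no filter on dim genes (0.0627), and in all under 11 of 26 alternatives. The fall in Mut cells held with every array left out in turn. In DLD1 the level was 7.10 and 7.03 without glutamine and 7.22 and 7.39 with it in Mut cells, and 7.24 and 7.29 without glutamine and 7.30 and 7.42 with it in WT cells, and neither change was called (-0.24 ± 0.12 and -0.10 ± 0.12). The average change of RBL2 was called as a fall (-0.23 ± 0.06, adjusted p = 0.00886) although it combines these opposite changes.

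**Figure D2:**
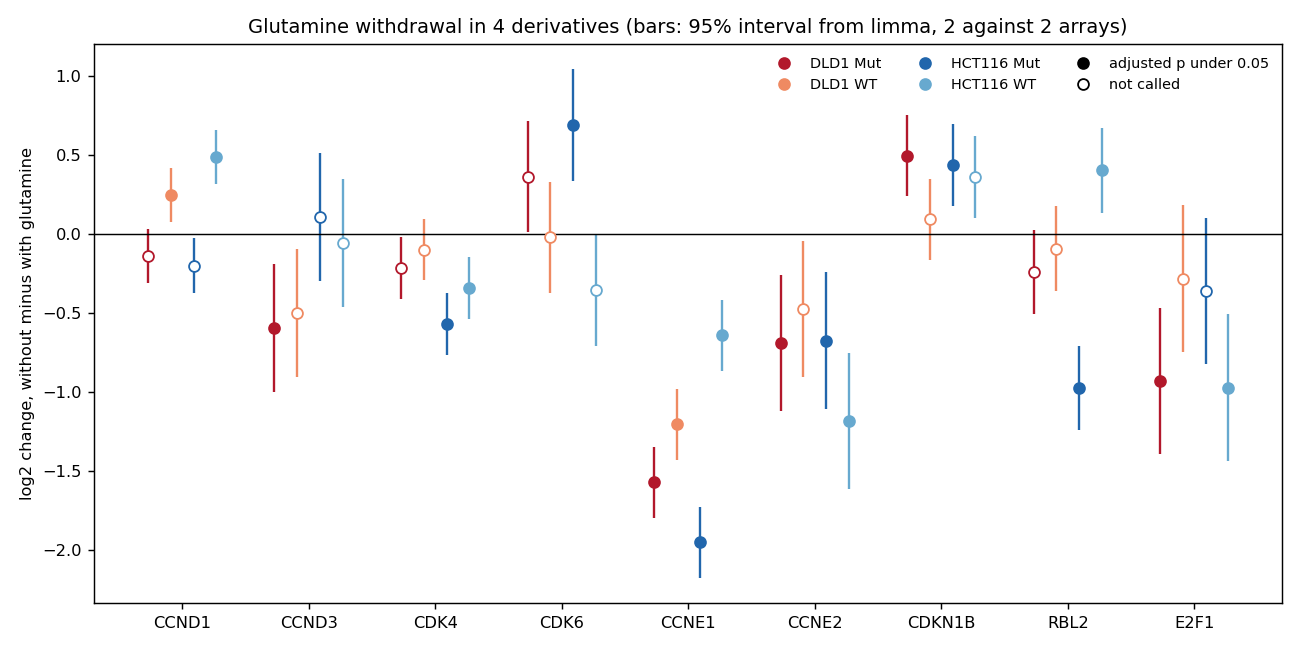
Log2 change without minus with glutamine (y axis) of the 9 tested genes (x axis) in the 4 derivatives, with limma's 95% interval as bars and filled points for changes with adjusted p under 0.05. CCNE1 is filled and below 0 in all 4 derivatives, and RBL2 lies at -0.98 in HCT116 Mut and 0.40 in HCT116 WT cells.

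Set against each other as averages over the genotypes, the responses of the lines differed for 1 of 9 members, where 19% of all tested genes differed (10% with a higher and 8.93% with a lower change in DLD1). CDK4 had a less negative change in DLD1 than in HCT116 (difference 0.30 ± 0.09, adjusted p = 0.0382). This call was lost when any 1 of 13 arrays was left out (differences of 0.26 to 0.32, highest adjusted p = 0.0894) and with no filter on dim genes (0.0724); among single arrays left out, it held only for replicate 1 of DLD1 Mut with glutamine, of DLD1 WT without glutamine or of DLD1 WT with glutamine. For CCNE1 the difference was -0.09 ± 0.10 with a 95% interval of -0.31 to 0.13, and for E2F1 0.06 ± 0.21 with an interval of -0.40 to 0.52. CCND3 had the next smallest adjusted p (difference -0.57 ± 0.18, adjusted p = 0.0520) and was called without replicate 2 of DLD1 Mut with glutamine, DLD1 WT without glutamine, DLD1 WT with glutamine or HCT116 Mut with glutamine (-0.68 to -0.65, adjusted p = 0.0266 to 0.0490). CCNE2 (0.35 ± 0.19) was called without replicate 2 of HCT116 Mut without glutamine (0.53, adjusted p = 0.0192).

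The comparison of Mut with WT cells asks whether the kept PIK3CA allele goes with a different level of these regulators. With glutamine 0 of 9 members were called by limma in DLD1, where 5.81% of all tested genes were (2.6% higher and 3.2% lower in Mut cells), and 0 of 9 in HCT116, where 3.23% were (1.12% higher and 2.12% lower). At an unadjusted p under 0.05 there were 1 in DLD1, CCND1 (0.24 ± 0.08), and 2 in HCT116, CDK4 (0.23 ± 0.09) and CDK6 (0.46 ± 0.16). CCND1 in DLD1 and CDK4 in HCT116 were called as higher in Mut cells with eBayes trend and robust (adjusted p = 0.00687 and 0.0453). CCNE1 differed by -0.08 ± 0.10 in DLD1 (95% interval -0.30 to 0.15) and by 0.22 ± 0.10 in HCT116 (95% interval -0.0034 to 0.44).

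Without glutamine the HCT116 derivatives differed in 4 of 9 members, where 24.6% of all tested genes differed (12.3% higher and 12.4% lower in Mut cells). RBL2 was 3.04-fold lower in Mut than in WT cells (-1.60 ± 0.12, adjusted p = 1.66e-05), with 5.86 and 5.65 in Mut against 7.23 and 7.49 in WT cells. CDK6 was 2.84-fold higher (1.51 ± 0.16, adjusted p = 0.000111), with 8.42 and 8.37 in Mut against 6.90 and 6.87 in WT cells. CCNE1 was 2.13-fold lower (-1.09 ± 0.10, adjusted p = 5.85e-05), with 6.40 and 6.60 in Mut against 7.53 and 7.64 in WT cells. CCND1 was 1.65-fold lower (-0.72 ± 0.08, adjusted p = 0.000118), with 9.30 and 9.34 in Mut against 10.01 and 10.07 in WT cells. Each of these 4 calls held under every alternative run. E2F1 was not called (0.37 ± 0.21, adjusted p = 0.246) and its arrays overlapped, with 6.25 and 5.96 in Mut and 5.43 and 6.05 in WT cells. CCNE2 was not called either (0.38 ± 0.19, adjusted p = 0.192). Both were called as higher in Mut cells when a single array was left out, CCNE2 without HCT116 Mut replicate 1 without glutamine (0.75, adjusted p = 0.00706) and E2F1 without HCT116 WT replicate 2 without glutamine (0.68, adjusted p = 0.0488).

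In DLD1 without glutamine 1 of 9 members was called, where 10.3% of all tested genes were (4.36% higher and 5.91% lower in Mut cells). CCNE1 was lower in Mut cells (-0.44 ± 0.10, adjusted p = 0.0200), with 6.83 and 6.84 in Mut against 7.29 and 7.27 in WT cells. The call was lost without any 1 of these 4 arrays (changes of -0.45 to -0.43, adjusted p = 0.0831 to 0.106). CDKN1B had a difference of 0.37 ± 0.12 without a call (adjusted p = 0.0692; 0.0270 without replicate 1 or 2 of HCT116 Mut with glutamine), and E2F1 one of -0.55 ± 0.21 (adjusted p = 0.133). That of CDKN1B was called as higher in Mut cells with eBayes trend and robust (0.0127), genes above the median level (0.0403) and quantile normalization (0.0404).

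**Figure D3:**
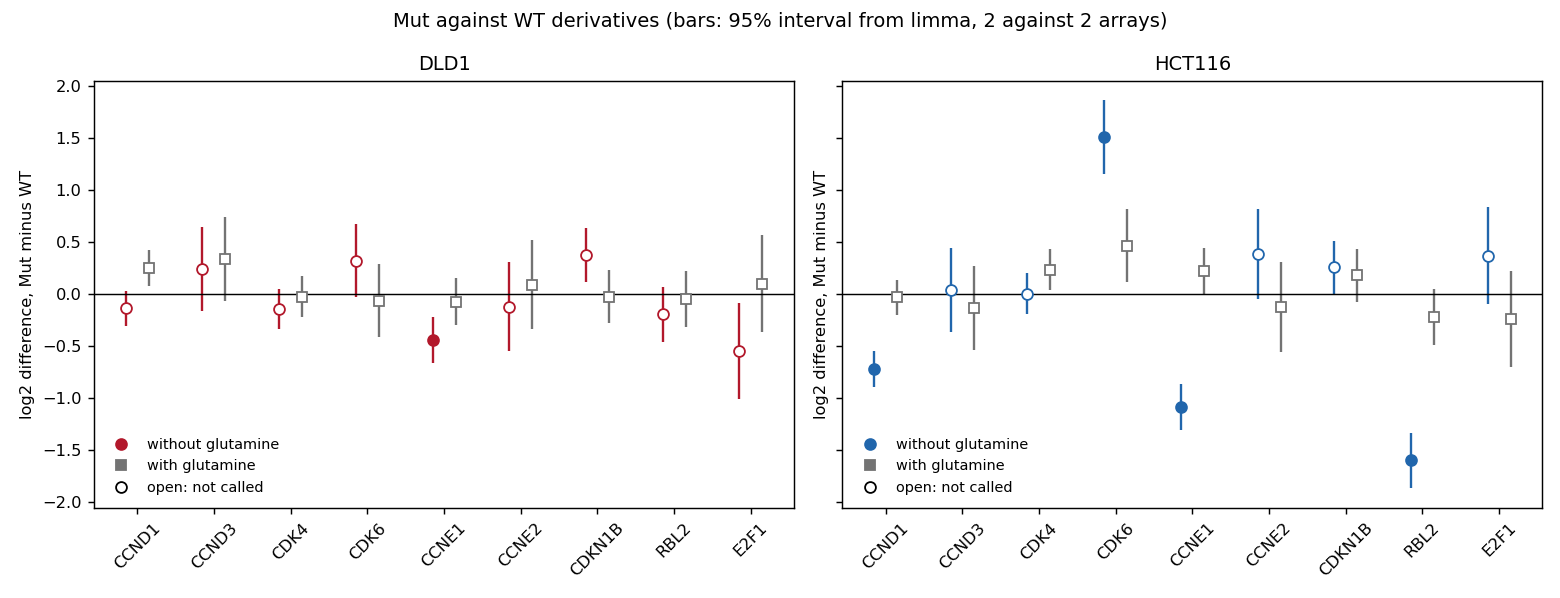
Log2 difference Mut minus WT (y axis) of the 9 tested genes (x axis) in DLD1 (left) and HCT116 (right), without glutamine as circles and with glutamine as squares, with limma's 95% interval as bars and filled symbols for adjusted p under 0.05. In HCT116 without glutamine CDK6 lies at 1.51 and RBL2 at -1.60, and no square is filled in either line.

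The interaction of genotype and glutamine tests whether the response itself differed between Mut and WT cells. In HCT116 it was called for the same 4 members, where 9.49% of all tested genes were called (4.75% up and 4.75% down). It was -1.38 ± 0.17 for RBL2 (adjusted p = 0.0013), -1.31 ± 0.14 for CCNE1 (adjusted p = 0.000734), 1.05 ± 0.23 for CDK6 (adjusted p = 0.0174) and -0.69 ± 0.11 for CCND1 (adjusted p = 0.00438). Leaving out a single HCT116 array ended the CDK6 call in 4 cases: Mut without glutamine replicate 1 (1.02, adjusted p = 0.0510), Mut with glutamine replicate 2 (0.97, adjusted p = 0.0567), WT without glutamine replicate 2 (1.03, adjusted p = 0.0513) and WT with glutamine replicate 1 (0.89, adjusted p = 0.0632). That of CCND1 was lost with HCT116 fitted alone (adjusted p = 0.0545). For CCNE2 the interaction was 0.51 ± 0.28 and not called, but called without HCT116 Mut replicate 1 without glutamine (0.87, adjusted p = 0.0249). In DLD1 0 of 9 members were called by limma, where 0.823% of all tested genes were (0.255% up and 0.568% down), and 3 had an unadjusted p under 0.05: CCND1 (-0.39 ± 0.11), CCNE1 (-0.37 ± 0.14) and CDKN1B (0.40 ± 0.16). That of CCND1 was called with eBayes trend and robust (adjusted p = 0.00797). Whether the interaction differed between the lines was not tested.

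With glutamine the lines themselves differed in 5 of 9 members, where 47% of all tested genes did (24.5% higher and 22.5% lower in DLD1). DLD1 had higher levels of CDKN1B (0.73 ± 0.08, adjusted p = 2.62e-05), CCNE2 (0.61 ± 0.14), CCND3 (0.58 ± 0.13) and RBL2 (0.49 ± 0.09). CDK6 was lower in DLD1 (-0.35 ± 0.11, adjusted p = 0.0243), with overlapping arrays. The CDK6 call was lost without replicate 1 of any 1 of the 4 groups with glutamine (differences of -0.31 to -0.27, adjusted p = 0.0775 to 0.0953). CCND1, CDK4 and CCNE1 had differences of -0.01 ± 0.05, 0.00 ± 0.06 and 0.11 ± 0.07, with 95% intervals of -0.13 to 0.11, -0.14 to 0.14 and -0.05 to 0.26.

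Other genes of the pathway were followed as lists, which were also chosen with earlier results of these data known. They are given here mainly for withdrawal averaged over the derivatives. All tested genes had a median change of -0.0042 and called shares of 24.3% up and 23.5% down. Of the other CDK inhibitors 3 of 5 tested rose on average (median 0.66). In DLD1 1 rose in Mut (median 0.28) and 3 in WT cells (median 0.50). In HCT116 4 rose in Mut (median 1.07) and 1 in WT cells (median 0.25). The shares of all tested genes that rose were 16.8%, 14%, 16.4% and 10.3% in that order. CDKN2B, an inhibitor of CDK4 and CDK6, rose in all 4 derivatives (2.37 ± 0.18 in DLD1 Mut, 1.12 ± 0.18 in DLD1 WT, 1.71 ± 0.18 in HCT116 Mut and 1.40 ± 0.18 in HCT116 WT cells). CDKN2D, of the same family, rose by 0.72 ± 0.17 on average, and CDKN1A (p21), a p53 target, rose in HCT116 Mut (1.40 ± 0.15) and DLD1 WT cells (0.50 ± 0.15). CDKN2A (-0.17 ± 0.17) and CDKN1C (0.06 ± 0.13) were not called on average, though CDKN1C rose in HCT116 Mut cells (0.87 ± 0.27).

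Of 19 tested E2F target genes, other than the members, 19 fell on average (median -0.83). The medians were -0.94 and -0.41 in DLD1 Mut and WT, and -0.90 and -1.26 in HCT116 Mut and WT cells. The change was called as higher in DLD1 than in HCT116 for 10 of the 19 (10% of all tested genes) and lower for 0 (8.93%). In single derivatives 19 fell in DLD1 Mut (16.8% of all tested genes fell), 15 in DLD1 WT (13%), 17 in HCT116 Mut (16.5%) and 19 in HCT116 WT cells (10.1%). The largest average falls were those of ORC1 (-1.55 ± 0.07), a subunit of the origin recognition complex, and MYBL2 (-1.38 ± 0.04), a transcription factor of cell cycle genes. Without glutamine 12 of the 19 were higher and 2 lower in HCT116 Mut than in WT cells, where 12.3% and 12.4% of all tested genes were. In DLD1 without glutamine 11 of the 19 were lower in Mut than in WT cells, where 5.91% of all tested genes were. The interaction of genotype and glutamine was called down for 5 of the 19 in DLD1 (0.568% of all tested genes). In HCT116 the interaction was called up for 8 and down for 1 (4.75% of all tested genes each).

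In the RB and E2F families 5 of 11 fell and 2 rose on average (median -0.07). TFDP1, the dimer partner of E2F factors, fell in all 4 derivatives (-0.61 ± 0.05 on average). On average the repressor E2F8 fell (-0.72 ± 0.07), while the other partner TFDP2 (0.36 ± 0.05) and the repressor E2F6 (0.22 ± 0.08) rose. The pocket proteins of HCT116 cells without glutamine did not share the difference of RBL2: RB1 (0.71 ± 0.09) and RBL1 (1.16 ± 0.13) were higher in Mut than in WT cells, where RBL2 was lower. The interaction in HCT116 was called in the same direction for RB1 (0.73 ± 0.12) and RBL1 (1.09 ± 0.18). In the DREAM and MuvB list 3 of 8 fell and 2 rose, with FOXM1 (-0.62 ± 0.05), which activates genes of mitosis, falling and the subunits LIN37 (0.71 ± 0.06) and LIN54 (0.20 ± 0.04) rising.

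Among other kinases, cyclins and activators 4 of 8 fell and 3 rose on average (median -0.15). In DLD1 4 fell and 3 rose in Mut, and 3 fell and 3 rose in WT cells. In HCT116 2 fell and 1 rose in Mut, and 4 fell and 0 rose in WT cells. Of all tested genes 16.8% fell and 16.8% rose in DLD1 Mut, and 13% and 14% in DLD1 WT cells. The shares were 16.5% and 16.4% in HCT116 Mut, and 10.1% and 10.3% in HCT116 WT cells. CDK2, the partner of cyclin E, fell in all 4 derivatives (-0.65 ± 0.05 on average). The CDK2-activating phosphatase CDC25A fell on average (-0.81 ± 0.07). The subunits CCNH (0.54 ± 0.07) and CDK7 (0.39 ± 0.06) of the CDK-activating kinase rose on average, with neither called as a rise in HCT116 WT cells. Of 9 ubiquitin ligase genes 5 fell and 1 rose (median -0.16). SKP2, which targets CDKN1B protein for degradation, fell in all 4 derivatives (-1.39 ± 0.06 on average). DTL, which targets replication factors, fell on average (-0.73 ± 0.05), and AMBRA1, which targets D-type cyclins, rose (0.22 ± 0.06). Of 8 FOXO targets 5 rose and 1 fell on average (median 0.35). IRS2 (1.58 ± 0.09), an adaptor of the insulin receptor, and KLF6 (1.47 ± 0.08), a transcription factor, rose. SESN3 (-0.47 ± 0.13), a brake on mTORC1, fell. In DLD1 4 rose and 1 fell in Mut (16.8% of all tested genes rose and 16.8% fell) and 5 rose in WT cells (14%). In HCT116 2 rose in Mut (16.4%) and 2 in WT cells (10.3%). The medians were 0.38 and 0.71 in DLD1 Mut and WT, and 0.08 and 0.18 in HCT116 Mut and WT cells. The change was called as higher in DLD1 than in HCT116 for 4 of 8 (10% of all tested genes).

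**Figure D4:**
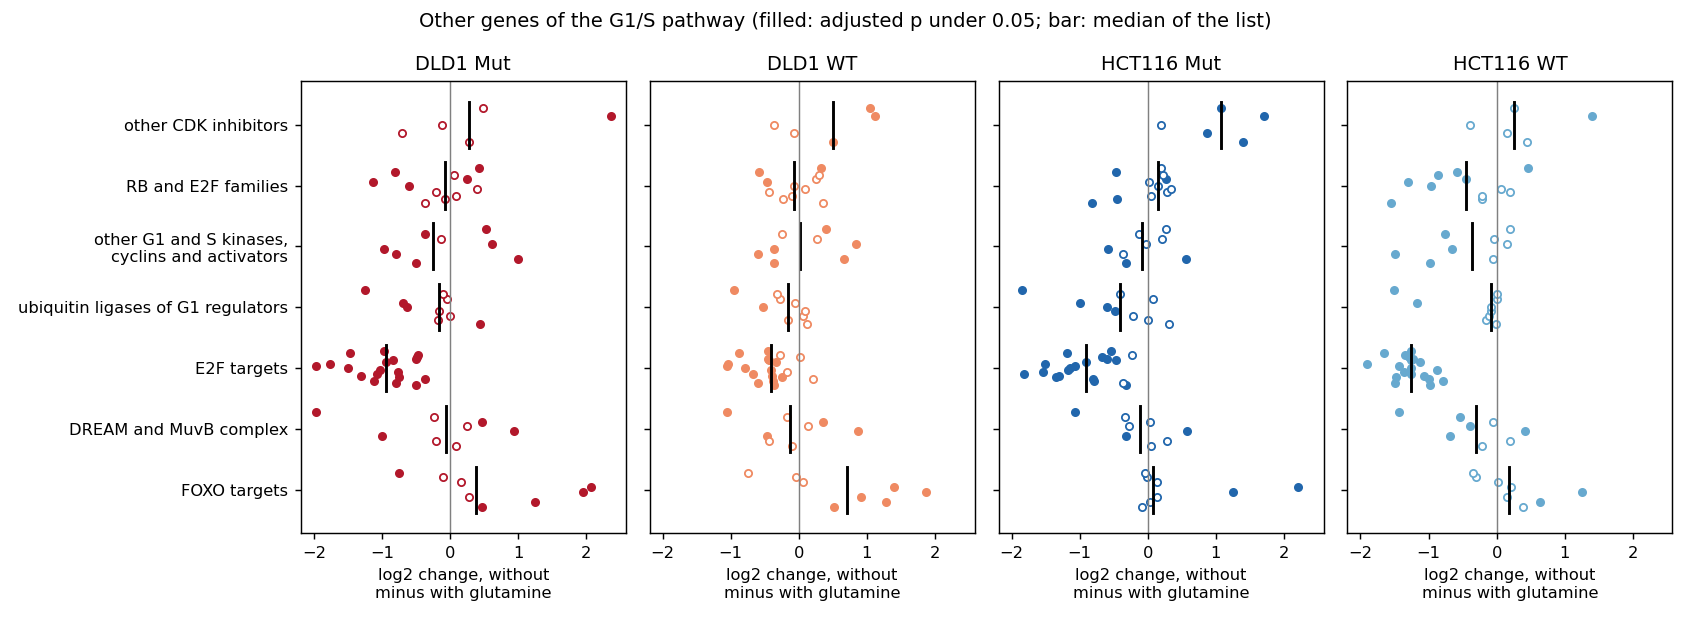
Log2 change without minus with glutamine (x axis) of each tested gene in 7 lists of other G1/S pathway genes (y axis) in the 4 derivatives, with filled points for adjusted p under 0.05 and a bar at the median of the list. All 19 filled points of the E2F targets in DLD1 Mut and in HCT116 WT cells lie left of 0.

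Genes with the most alike pattern were found by Pearson's r over the 8 group means, after subtracting each line's own mean, so that r describes genotype and glutamine within the lines. These are descriptions over 8 points of the same 16 arrays, picked as the highest of all tested genes. For CCNE2 they were CDC45 (r = 0.994), EXO1 (0.994) and BLM (0.993), which act in replication and repair of DNA, and 105 genes reached 0.95. For E2F1 they were the kinase MELK (0.992), the guidance factor NTN1 (0.986) and the mitotic motor KIFC1 (0.984), with 49 genes at 0.95 or more. CCNE1 had 257 such genes, led by the ubiquitin-activating enzyme UBA1 (0.994), the O-glycosylation enzyme GALNT1 (0.992) and SEPTIN11 (0.992). CCND1 had 10, led by the forkhead factor FOXO4 (0.992), UFSP1 (0.987) and the glycosyltransferase MGAT4B (0.985). RBL2 had 27, led by ZBED2 (0.995), the leukotriene enzyme LTA4H (0.985) and the ceramide kinase CERK (0.985). CDK6 had 11, led by DNTTIP2 (0.991), PDLIM3 (0.976) and ZNF551 (0.974).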

How the data were processed

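The authors deposited linear intensities of 53617 probe sets. RNA was labelled by an Affymetrix whole-transcript protocol, per the labels' protocols, and how the authors normalized the intensities is not given in the sources used here. Values were log2-transformed with no pseudocount. Of 25713 annotated probe sets 23871 had 1 symbol and 1842 several, and 27904 had none; 90 symbols were updated by Entrez identifier (RefSeq, GRCh38.p14). The brightest probe set per gene was used. All 16 arrays were fitted with limma 3.58.1 in R 4.3.3 (lmFit, eBayes; 8 residual and 2.49 prior degrees of freedom) as 8 group means with 13 contrasts, checked on simulated data. The alternatives were quantile normalization, a shift to equal medians, a pseudocount of 1, other filters on dim genes, the mean of probe sets, eBayes with trend and robust, separate fits of each line, a replicate block and each array left out. The number of arrays limits the precision.

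The members and lists were chosen with earlier results of these data known. The 10 members are always named, with up to 2 called genes per list and direction by size of the average change, and the 3 most alike genes of the members the results turn on. Others named from the lists, namely CDKN1A, CDKN2A, CDKN1C, RB1 and RBL1, were chosen after their values were seen. Genes with several symbols were not used here.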

Additional observations from a re-analysis of the deposited data

Results flagged for a closer look

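Of the members, 5 responses differed between groups by the test of the difference itself (limma). In HCT116 the response to glutamine withdrawal differed between Mut and WT cells for RBL2 (-1.38), CCNE1 (-1.31), CDK6 (1.05) and CCND1 (-0.69), on the log2 scale. These were 4 of 9 members, where 9.49% of all tested genes were called. The CDK6 call was lost when any 1 of 4 arrays was left out, and that of CCND1 with HCT116 fitted alone. The response of CDK4 differed between DLD1 and HCT116 (0.30). It was 1 of 9 members, where 19% of all tested genes differed, and its call was lost when any 1 of 13 arrays was left out. Groups of 2 arrays are too small for a search for single arrays that stand apart.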

How the results depend on the processing

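No change or difference of a member that was called turned its direction under any alternative. Over members and comparisons, leaving out 1 array kept the side of the threshold in 1785 cases, lost a call in 71 and gained one in 16. The other alternatives kept it in 1091, lost it in 19 and gained it in 20. These cases include changes that were not called and so could not lose a call, so they understate how often a call was lost. With an array left out, the members called on withdrawal numbered 2 to 5 in DLD1 Mut, 1 to 2 in DLD1 WT, 5 to 6 in HCT116 Mut, 3 to 7 in HCT116 WT and 6 to 8 on average. They numbered 0 to 1 for DLD1 minus HCT116, 0 to 2 for Mut against WT without glutamine in DLD1, 4 to 5 for the same in HCT116, 3 to 4 for the HCT116 interaction and 4 to 5 between the lines with glutamine. The percent of all tested genes called then ran from 25.5 to 33.7, 18.6 to 26.9, 25.3 to 32.7 and 13.1 to 20 on withdrawal in DLD1 Mut, DLD1 WT, HCT116 Mut and HCT116 WT cells, 45 to 46.4 on average, and 15.2 to 17.2 for DLD1 minus HCT116. It ran from 2.93 to 5.66 and 1.27 to 3.11 for Mut against WT with glutamine in DLD1 and HCT116, 4.52 to 9.97 and 16.4 to 24.5 without it, 0.0957 to 0.619 and 5.37 to 8.91 for the interactions, and 42.5 to 46.9 between the lines.

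With no filter on dim genes the percent called was 21.8, 17.1, 21.5 and 12.3 on withdrawal in DLD1 Mut, DLD1 WT, HCT116 Mut and HCT116 WT cells, 11.2 for DLD1 minus HCT116, 3.31 and 1.71 for Mut against WT with glutamine in DLD1 and HCT116, 5.69 and 15.1 without it, and 0.205 and 4.86 for the interactions; the members called were 1 on withdrawal in DLD1 WT and 0 for DLD1 minus HCT116, and RBL2 in HCT116 WT was lost. With genes above the median level only, it was 32.2 on withdrawal in HCT116 WT, 29.8 for DLD1 minus HCT116, 9.43 and 6.29 for Mut against WT with glutamine, 17.4 (2 members) and 37.2 without it, and 2.93 and 18 for the interactions. Quantile normalization called 2 members for Mut against WT without glutamine in DLD1. With eBayes trend and robust, 1 member was called for Mut against WT with glutamine in DLD1 (8.8% of genes) and in HCT116 (6.14%), 2 without it in DLD1, and 1 for the DLD1 interaction (3.84%). With each line fitted separately the percent was 3.82 and 0.568 for Mut against WT with glutamine in DLD1 and HCT116, 0.0191 and 2.74 for the interactions, and 13.2 on withdrawal in HCT116 WT; the withdrawal calls of CCND1 in DLD1 WT, CCND3 in DLD1 Mut, CCNE2 and CDKN1B in HCT116 Mut, and CDK4 and RBL2 in HCT116 WT, and the HCT116 interaction of CCND1, were lost. The cause of these shifts was not tested.

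Same-numbered arrays did not deviate together gene by gene (28 pairs, r from -0.04 to 0.03), so the numbers were not taken as pairs in the main fit. This r leaves out any shift common to all genes of an array. The upper quartile of intensity was higher in replicate 1 in every group but DLD1 Mut without glutamine. Whether the numbers mark a batch was not tested. The replicate block over all arrays left 1 member called on withdrawal in DLD1 WT (CCND1 lost, adjusted p = 0.0530) and lost RBL2 in HCT116 WT (0.0533), with 0.485% of genes called for the DLD1 interaction. The replicate block within each line lost CCND1 in DLD1 WT (0.0710), which left 1 there, RBL2 in HCT116 WT (0.0611), CDK4 for DLD1 minus HCT116 (0.0619) and the average fall of CCND3 (0.0511), and called 0 for DLD1 minus HCT116, with 0.14% for the DLD1 interaction. CCND3, CCND2 and the leukocyte markers were dim, which limits their values.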
